A study of Mus musculus with 48 samples.

Results

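The transcripts of heme synthesis and of the inducible heme oxygenase were examined on arrays of the liver, the gastrocnemius muscle and the epididymal fat pad of male C57Bl/6J mice aged 3 months. The 9 genes, Alas1, Alas2, Alad, Uros, Urod, Cpox, Ppox, Fech and Hmox1, were chosen by gene symbol, and their 15 probes stand among 25697 probes for 16593 named genes on Illumina mouse arrays. The choice of this pathway followed from results already known in these arrays, in which Alas2 was selected on its liver values in FGF21-Tg and calorically restricted mice. Those livers and their wild-type and ad libitum controls therefore give Alas2 values as descriptions with no test, in every comparison that uses them. Where Alas2 is counted among the members that passed in such a comparison, nothing is read from it.

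Each tissue was hybridized in 5 groups. FGF21-Tg mice (n = 3 arrays) carry an FGF21 transgene that the apoE promoter drives in hepatocytes, and were set against wild-type mice (n = 3 arrays). Mice under caloric restriction for 2 weeks (n = 4 arrays) and mice fasted for 24 hr (n = 3 arrays) were set against mice fed ad libitum (n = 3 arrays). The labels give the restriction as 40%, whereas the methods describe food equal to 40% of baseline intake. A legend of the study matches the methods, so the labels stand apart from both. Restricted mice were killed shortly before their daily meal, so restriction and the time since food cannot be told apart. Each array holds RNA of 1 to 3 mice, so the arrays are the replicates.

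Heme is made from glycine and succinyl-CoA. Aminolevulinate synthase performs the committed and limiting step in mitochondria, and exists as a general form, Alas1, which supplies heme to cytochrome P450 enzymes in hepatocytes, and as an erythroid form, Alas2, which supplies hemoglobin and is encoded on the X chromosome. Alad, Uros and Urod act in the cytosol, and Cpox, Ppox and Fech complete the ring in mitochondria, where Fech, ferrochelatase, inserts iron. Hmox1, the inducible heme oxygenase, opens the ring and releases iron, carbon monoxide and biliverdin. Alas1 transcription is known to be repressed by heme and raised in fasted mouse liver by Ppargc1a, the coactivator PGC-1α.

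The sequences before the starts of the synthase genes are shown because the general and the erythroid form are described side by side below. They are 250 bases upstream of the RefSeq start in the mouse build GRCm38.p6, at chr9:106247955-106248204 on the minus strand for Alas1 and chrX:150547167-150547416 on the plus strand for Alas2, written 5′ to 3′ along the gene. Capitals mark the GATA motif AGATAA, known as the binding sequence of erythroid GATA factors, or its reverse complement TTATCT, and the GC box GGGCGG or its reverse complement CCGCCC.
Alas1: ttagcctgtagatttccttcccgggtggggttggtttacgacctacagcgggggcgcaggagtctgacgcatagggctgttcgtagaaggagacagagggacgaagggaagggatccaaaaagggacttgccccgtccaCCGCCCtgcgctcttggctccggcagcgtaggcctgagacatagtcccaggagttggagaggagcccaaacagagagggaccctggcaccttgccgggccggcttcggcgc
Alas2: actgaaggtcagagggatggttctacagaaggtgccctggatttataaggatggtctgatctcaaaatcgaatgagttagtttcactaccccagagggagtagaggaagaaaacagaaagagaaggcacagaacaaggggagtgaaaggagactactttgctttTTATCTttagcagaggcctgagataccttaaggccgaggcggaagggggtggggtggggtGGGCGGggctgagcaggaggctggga
Alas2 held 1 GATA motif with its first base 86 bases upstream of the start and 1 GC box at 26 bases, whereas Alas1 held no GATA motif and 1 GC box at 111 bases. Of 32851 mouse promoters of this length, 9.99% held the GATA motif and 32.7% the GC box on either strand. Of the 7 members listed with a promoter, Alas2 was the only one with the GATA motif. Alad held 2 GC boxes, Uros and Urod 1 each, and Cpox and Ppox neither motif. The matches describe these letters only, and binding was not measured.

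The signals of the arrays on the second and the third chip in sample order were at odds with their labels. The hepatocyte transcript Apoa1, the muscle transcript Ckm and the adipocyte transcript Adipoq marked the labelled tissue on 32 of 32 arrays of chips 1, 4, 5 and 6, but on 4 of 16 arrays of chips 2 and 3. When the labels of chips 2 and 3 were exchanged position by position, the top marker was that of the labelled tissue on 16 of 16 arrays. Because this exchange was chosen on the markers, their fit is no test of it. At 2 positions, which hold 4 arrays, both labels name adipose tissue, and the markers cannot decide between ad libitum mice 1 and 2 and calorically restricted mice 3 and 4. Results are given with this exchange, and without these chips where arrays remain. In liver the exchange touches only calorically restricted replicates 3 and 4. In muscle it touches all ad libitum arrays and fasted replicate 1, and in adipose tissue all ad libitum, fasted and calorically restricted arrays.

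Signals were background corrected, quantile normalized within a tissue and put on the log2 scale, and all levels and differences below are on that scale unless a fold is named. Arrays had median unnormalized signals of 182 to 265 and detected 42.0 to 56.3% of probes, and precision is limited by the small number of arrays per group. Of 7 hepatocyte markers 6 were detected on every liver array and Fgb on none, 7 of 7 muscle markers on every muscle array, and 4 or 5 of 5 adipocyte markers on each adipose array. In liver the Fgf21 transcript lay at 15.97, 15.97 and 15.85 in FGF21-Tg mice, against 7.70, 7.70 and 9.13 in wild-type mice, as the labels of these groups say. A gene was tested in limma with all 5 groups of a tissue in 1 fit, and passed at a Benjamini-Hochberg adjusted p under 0.10 over all genes tested. All 9 members were tested in liver and muscle, and 8 in adipose tissue, where Cpox was not detected on any array.

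In the liver Alas2 was lower in FGF21-Tg, calorically restricted and fasted mice, whereas Alas1 was not called in any of these comparisons. Alas2 levels were 9.67, 8.04 and 9.81 in livers of FGF21-Tg mice, against 11.84, 11.71 and 11.53 in those of wild-type mice. All 3 FGF21-Tg livers lay below all wild-type livers, and replicate 2 was the lowest. The mean was 5.73-fold lower (log2 fold change −2.52, SE 0.37). Wild-type replicate 3 shared a chip with the FGF21-Tg livers and lay above all of them, and the change was −2.35 with chip as a block.

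Under caloric restriction Alas2 was at 8.66, 8.80, 8.70 and 9.83, against 11.96, 11.75 and 11.76 in ad libitum livers. The groups did not overlap, and restricted replicate 4 lay apart from the other restricted livers. The mean was 7.11-fold lower (−2.83, SE 0.34), and −3.09 without chips 2 and 3, which leaves 2 restricted livers that share a chip with the ad libitum livers.

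Fasted livers were intermediate in Alas2 level at 10.42, 10.55 and 10.63, above every restricted liver and below every ad libitum liver. The fall against ad libitum mice was 2.45-fold (−1.29, SE 0.37, and −1.29 without chips 2 and 3). It is given with no test, because it shares its ad libitum arrays with the restriction contrast on which Alas2 was selected. Fasted minus restricted livers differed by 1.54 (SE 0.34).

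Alas1 was at 13.65, 14.51 and 15.13 in FGF21-Tg livers, against 14.02, 13.62 and 14.44 in wild-type livers. The groups overlapped, and the difference of 0.40 had a 95% confidence interval of −0.21 to 1.01 (SE 0.29, adjusted p = 0.52). Alas1 ran from 15.23 to 15.65 in restricted livers and from 15.59 to 15.81 in fasted livers, against 15.20 to 15.69 in ad libitum livers. The changes were −0.03 (interval −0.59 to 0.54, adjusted p = 0.96) under restriction and 0.26 (adjusted p = 0.62) after fasting. Thus limma did not separate any of these groups from its controls in Alas1. In the restricted, fasted and ad libitum livers Alas1 lay near the top of the signal scale, where the bright transcript Cyp4a14 averaged 16.02 in fasted livers. A rise may be compressed at such levels, which was not tested. FGF21-Tg replicate 1 was the lowest liver of its group in Alas1, and without it the difference was 0.79 (adjusted p = 0.099). With chip as a block it was −0.01 (adjusted p = 0.99).

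**Figure D1:**
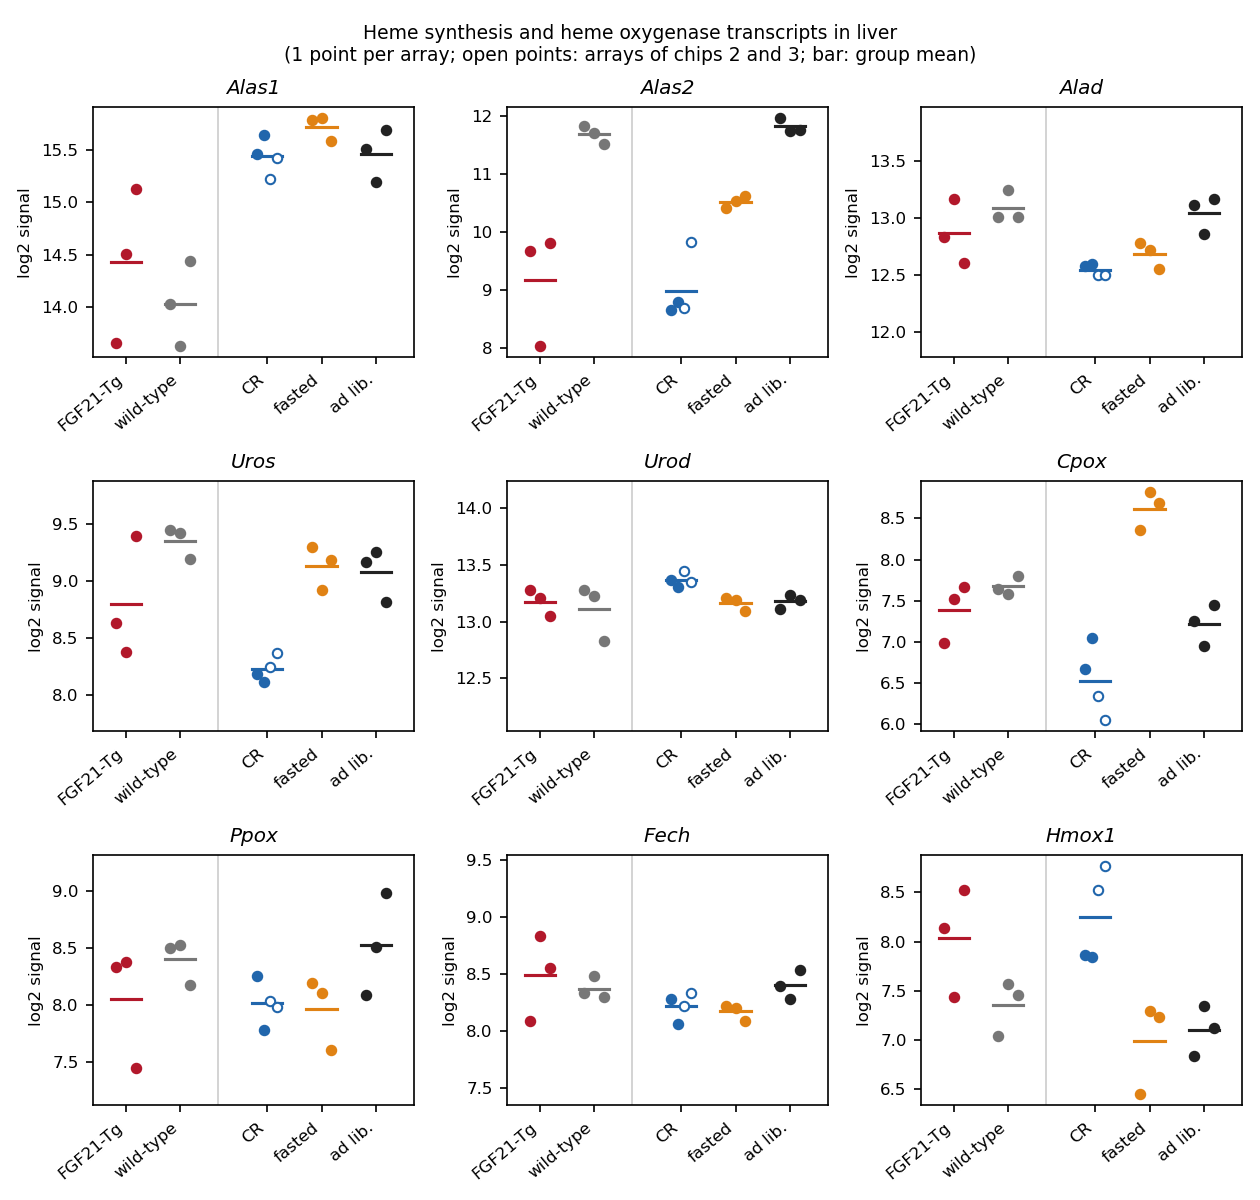
Log2 signal (y axis) of the 9 heme synthesis and heme oxygenase transcripts in liver, with 1 point per array, a bar at each group mean (n = 4 for caloric restriction, CR, and 3 for the other groups), and open points for arrays of the exchanged chips 2 and 3; each panel has its own y range. Alas2 lay between 8.04 and 9.83 in FGF21-Tg and restricted livers, against 11.53 to 11.96 in wild-type and ad libitum livers, while the Alas1 groups overlapped within each comparison.

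The difference between the Alas1 and Alas2 probes on each array was followed across groups. Its size depends on the 2 probes and is not a ratio of transcripts, so only its change is read, as a description. In liver it averaged 5.25 ± 1.25 in FGF21-Tg mice and 2.34 ± 0.52 in wild-type mice (SD, n = 3 each), a change of 2.92. It averaged 6.45 ± 0.59 under restriction (SD, n = 4) and 5.20 ± 0.22 after fasting, against 3.64 ± 0.25 in ad libitum livers (SD, n = 3 each). These are changes of 2.80 and 1.56. In muscle the change was −0.09 in FGF21-Tg mice, −0.68 under restriction and 0.16 after fasting, and in adipose tissue it was −1.10, 0.10 and −1.21. In liver the difference widened in all 3 comparisons. It holds the liver Alas2 values on which that gene was selected, so nothing is read from this widening. In muscle and adipose tissue the changes were below 0.2 or negative, and no contrast with liver is drawn from them.

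**Figure D2:**
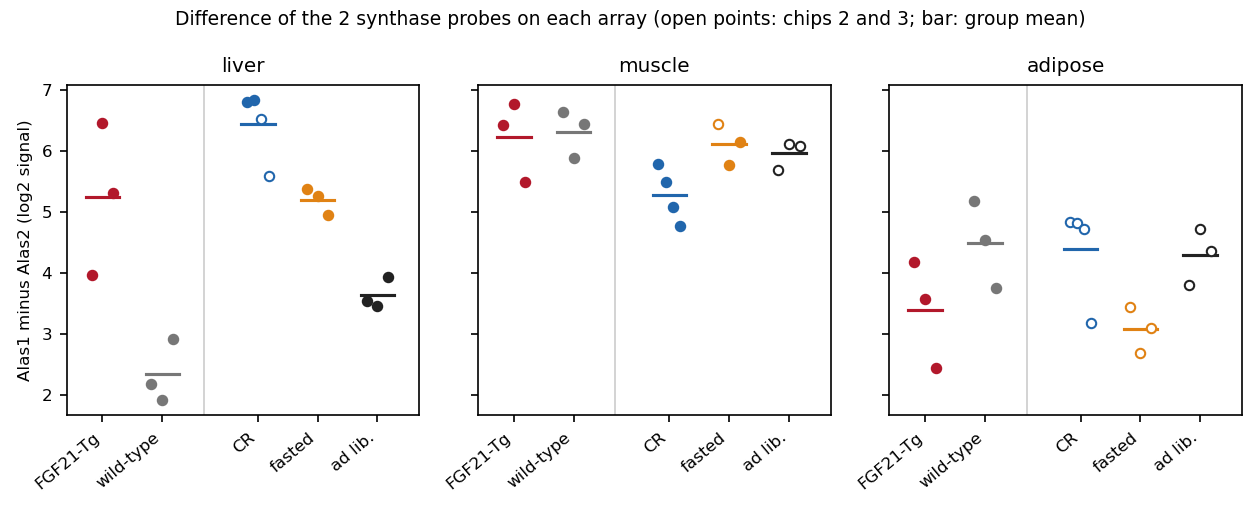
Alas1 minus Alas2 log2 signal on each array (y axis) in liver, muscle and adipose tissue, with a bar at each group mean and open points for arrays of chips 2 and 3. In liver the mean was 5.25 in FGF21-Tg and 2.34 in wild-type mice, and 6.45 and 5.20 in restricted and fasted mice, against 3.64 in ad libitum mice.

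Transcripts of red blood cell precursors were set beside Alas2, since it is the erythroid form. In FGF21-Tg livers 0 of 4 tested erythroid markers passed, their median change was 0.07, against 0.00 over all genes, and the summed level of the 8 markers on the array ran from 14.11 to 14.99, against 14.56 to 14.93 in wild-type livers. In restricted livers 3 of 4 passed downward, the α-globin Hba-a1 at −1.17, the band 3 anion exchanger Slc4a1 at −1.09 and the β-globin Hbb-b2. Of all genes tested 35.5% passed there, 5.64% in FGF21-Tg livers and 18.1% in fasted livers. Slc4a1 was detected on 2 of 4 restricted and 3 of 3 ad libitum arrays, so the size of its fall depends on the detection limit. In the FGF21-Tg comparison Slc4a1 was detected on 1 of 3 FGF21-Tg and 0 of 3 wild-type livers, and Hbb-b2 on 0 of 3 and 1 of 3. The median change of the markers there thus rests partly on probes at the detection limit, and Hba-a1 differed by −0.31. Hbb-b2 was not detected on any restricted or fasted liver array and on 2 of 3 ad libitum arrays, so only a bound stands for it, at least 1.13-fold higher in ad libitum than in restricted livers and at least 1.08-fold higher than in fasted livers. The bound is the mean of the detected group against, on each array of the other group, the higher of the lowest detected signal and the probe's own signal. Their summed level was 13.42 to 14.72 in restricted livers and 14.35 to 14.71 in fasted livers, against 14.89 to 15.21 in ad libitum livers. After fasting no erythroid marker passed other than this undetected Hbb-b2. The defining erythroid markers Trim10, Hemgn and Rhd were not detected on any liver array. In bulk tissue fewer cells of a type and less RNA per cell cannot be told apart, and the part of erythroid RNA in the Alas2 values was not tested.

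Of the 9 members, 1 passed in FGF21-Tg liver, the selected Alas2, where 5.64% of all genes tested passed, and 5 passed under caloric restriction, where 35.5% of all genes did. After fasting Alas2 and Cpox passed, 2 members, against 18.1% of all genes. Without chips 2 and 3 the counts were 1, 3 and 2 members, against 4.86%, 26.5% and 18% of all genes.

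Among the cytosolic steps, Alad and Uros fell in restricted livers and Urod did not pass. Alad, which joins molecules of aminolevulinate into porphobilinogen, was at 12.58, 12.60, 12.50 and 12.50 under restriction, against 13.12, 12.86 and 13.17 in ad libitum livers. The groups did not overlap, and the change was −0.50 (SE 0.14, adjusted p = 0.016), and −0.45 (adjusted p = 0.094) without chips 2 and 3. Uros, uroporphyrinogen III synthase, was at 8.19, 8.11, 8.25 and 8.37 under restriction, against 9.17, 9.26 and 8.82 in ad libitum livers. This was a fall of 1.80-fold (−0.85, SE 0.20, adjusted p = 0.0048), −0.93 (adjusted p = 0.020) without chips 2 and 3, and the other Uros probe changed by −1.13. Urod, the next enzyme, decarboxylates uroporphyrinogen, and its level ran from 13.31 to 13.44 in restricted livers, against 13.11 to 13.23 in ad libitum livers (0.19, adjusted p = 0.31).

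In FGF21-Tg livers none of these cytosolic steps passed. Uros was at 8.63, 8.38 and 9.40, against 9.45, 9.42 and 9.20 in wild-type livers, a difference of −0.55 (interval −1.01 to −0.10, adjusted p = 0.19). FGF21-Tg replicate 3 was at wild-type level, and without it the difference was −0.85 (adjusted p = 0.019). Alad differed by −0.22 (adjusted p = 0.51) and Urod by 0.06 (adjusted p = 0.87). In fasted livers Uros differed by 0.06 from ad libitum livers (adjusted p = 0.90), and Alad, at 12.78, 12.72 and 12.56, by −0.36 (adjusted p = 0.15). Fasted minus restricted livers differed in Uros by 0.91 (SE 0.20, adjusted p = 0.0051).

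Cpox, coproporphyrinogen oxidase, rose in fasted livers, whereas its fall in restricted livers did not hold under every setting. It was at 8.36, 8.82 and 8.68 in fasted livers, against 7.25, 6.95 and 7.45 in ad libitum livers, a rise of 2.65-fold (1.40, SE 0.24, adjusted p = 8.0e-04, with the same size without chips 2 and 3). Restricted livers were at 6.67, 7.05, 6.34 and 6.05, which overlapped the ad libitum range. The fall of 0.68 under restriction (SE 0.22, adjusted p = 0.031) became −0.35 (adjusted p = 0.31) without chips 2 and 3, and −0.57 (adjusted p = 0.12) without ad libitum replicate 3. It was −0.35 (adjusted p = 0.31) with chip as a block and −0.05 (adjusted p = 0.18) in the deposited log2 values. Set directly against restricted livers, fasted livers were 4.25-fold higher in Cpox (2.09, SE 0.22, adjusted p = 1.5e-05), and 1.75 higher on the log2 scale (adjusted p = 4.8e-04) without chips 2 and 3. The fasting change was 0.80 without background correction and 0.20 in the deposited log2 values, so its size depends on the processing. The other 2 Cpox probes were not detected on any liver array.

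Between fasted and restricted livers 4 of 9 members passed, Uros, Cpox, Hmox1 and the selected Alas2, against 24.9% of all genes, and the same count without chips 2 and 3, against 17% of all genes. Fasting and restriction share their ad libitum arrays, and this direct comparison does not use them.

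The last steps, Ppox and Fech, did not pass in any liver comparison with wild-type or ad libitum mice. Ppox, protoporphyrinogen oxidase, ran from 7.78 to 8.26 in restricted livers and from 7.61 to 8.19 in fasted livers, against 8.09 to 8.99 in ad libitum livers (−0.52, adjusted p = 0.13, and −0.56, adjusted p = 0.18). Ad libitum replicate 1 was the lowest of its group, and without it Ppox passed in both comparisons (−0.74, adjusted p = 0.055, and −0.78, adjusted p = 0.095). Fech ran from 8.06 to 8.34 and from 8.09 to 8.22, against 8.28 to 8.54 in ad libitum livers (−0.18 and −0.23, adjusted p = 0.42 for each). Its probes differed in sign in FGF21-Tg livers, at 0.12 and −0.38 for the 2 brighter ones.

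Hmox1 was higher in restricted livers, at 7.86, 7.84, 8.53 and 8.77, against 6.84, 7.35 and 7.12 in ad libitum livers. The groups did not overlap and the rise was 2.21-fold (1.15, SE 0.29, adjusted p = 0.0072). The arrays of the exchanged chip were the highest, and without them the difference was 0.75 (adjusted p = 0.12). With chip as a block it was also 0.75 (adjusted p = 0.11), so that this call rests on the arrays of that chip. In FGF21-Tg livers Hmox1 was at 8.14, 7.43 and 8.53, against 7.04, 7.57 and 7.45 in wild-type livers (0.68, interval 0.03 to 1.34, adjusted p = 0.26). Fasted livers were at 6.45, 7.29 and 7.23, 1.26 below restricted livers (SE 0.29, adjusted p = 0.0064, and 0.86 below with adjusted p = 0.096 without chips 2 and 3). Hmox1 is strongly expressed in macrophages. Of 10 macrophage markers tested in liver 2 rose and 3 fell under restriction, where 35.5% of all genes passed. Their summed level was 12.58 to 13.06 in restricted livers, against 12.68 to 13.32 in ad libitum livers. In FGF21-Tg livers the summed level was 13.34 to 14.27, against 13.16 to 13.26 in wild-type livers, with no overlap. Their part in the Hmox1 values was not tested.

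**Figure D3:**
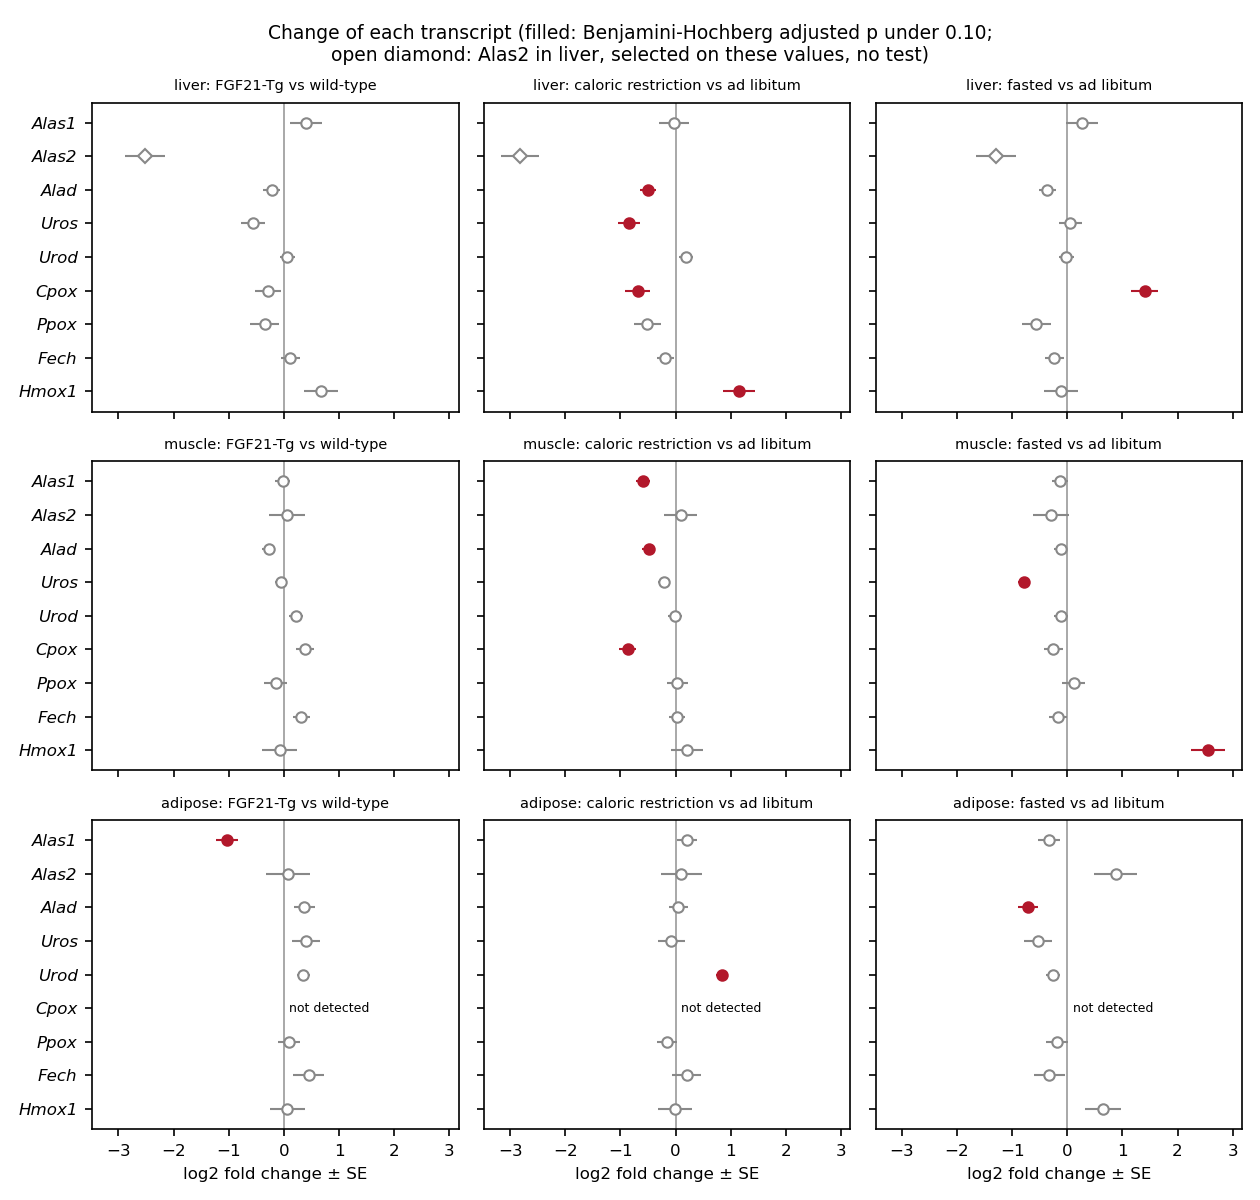
Log2 fold change with its standard error (x axis) of each member (y axis) in the 3 tissues (rows) and 3 comparisons (columns), filled where the limma adjusted p was under 0.10. Open diamonds mark Alas2 in liver, which was selected on these values, at −2.52, −2.83 and −1.29; the largest positive change was Hmox1 in fasted muscle at 2.56, and Cpox was not detected in adipose tissue.

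In muscle the erythroid form did not pass in any comparison and the general form Alas1 fell under restriction. Alas1 was at 13.13, 13.08, 12.93 and 12.97 in restricted muscle, against 13.52, 13.75 and 13.58 in ad libitum muscle. The groups did not overlap and Alas1 fell by 0.59 on the log2 scale (SE 0.13, adjusted p = 0.0017). Alad fell by 0.49 (SE 0.11, adjusted p = 0.0020), at 10.30 to 10.41 in restricted muscle, against 10.69 to 10.91 in ad libitum muscle. Alas2 was at 7.34 to 8.20 in restricted muscle, against 7.50 to 7.82 in ad libitum muscle (0.09, adjusted p = 0.84). Uros was 0.21 lower and did not pass (adjusted p = 0.102), but did without ad libitum replicate 2 (−0.28, adjusted p = 0.059), and its other probe differed by 0.27.

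Cpox was not detected on any of 4 restricted muscle arrays and was detected on 3 of 3 ad libitum arrays, which gives a level at least 1.37-fold higher in ad libitum muscle (fitted log2 fold change of restriction −0.87, adjusted p = 3.3e-04). The bound is set as for Hbb-b2 above. In all, 3 of 9 members passed under restriction in muscle, where 51.6% of all genes did. Restricted and ad libitum muscle lay on different chips, connected through the fasted arrays, and with chip as a block the changes were −0.64 for Alas1 (adjusted p = 0.083), −0.49 for Alad (adjusted p = 0.11) and −1.38 for Cpox (adjusted p = 0.0021).

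In fasted muscle Hmox1 rose and Uros fell, and these were the 2 of 9 members that passed, against 41.1% of all genes. Hmox1 was at 8.74, 9.26 and 9.81 in fasted muscle, against 6.82, 6.65 and 6.67 in ad libitum muscle. Every fasted array lay above every other muscle array, and the rise was 5.89-fold (2.56, SE 0.31, adjusted p = 1.1e-05). Fasted replicate 1 shares the exchanged chip with the ad libitum arrays. The other fasted arrays share a chip with the restricted ones, at 6.54 to 7.37, and with no ad libitum array. Within a chip, fasted and ad libitum muscle thus meet only through fasted replicate 1. In the deposited log2 values the rise of Hmox1 was 0.42. Uros was at 9.24, 9.31 and 9.16 in fasted muscle, against 10.11, 9.88 and 10.07 in ad libitum muscle, a fall of 1.72-fold (−0.78, SE 0.11, adjusted p = 4.9e-05), with −0.38 for its other probe.

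Without chips 2 and 3 no ad libitum muscle remains, and fasted muscle was set against restricted muscle. With all arrays 5 of 9 members passed, against 42% of all genes, and without chips 2 and 3 also 5, against 42.1% of all genes. Hmox1 was 5.10-fold higher in fasted muscle (2.35, adjusted p = 1.7e-05, and 2.63, adjusted p = 1.0e-04, without the chips). Alas1 differed by 0.46 (adjusted p = 0.013), Alad by 0.37 (adjusted p = 0.017) and Uros by −0.57 (adjusted p = 5.1e-04). Cpox, detected on 2 of 3 fasted and 0 of 4 restricted muscle arrays, was at least 1.15-fold higher in fasted muscle (adjusted p = 0.0068). In FGF21-Tg muscle 0 of 9 members passed in limma with either set of arrays, where 0.954% of all genes passed, and 1.6% without chips 2 and 3. Alad and Cpox had an unadjusted limma p under 0.05, and SAM also called 0. Hmox1 was detected on 1 of 3 FGF21-Tg and 2 of 3 wild-type muscle arrays, at 5.27 to 6.40 and 5.35 to 6.30.

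In adipose tissue Alas1 fell in FGF21-Tg mice. It was at 13.74, 13.07 and 13.18, against 14.67, 14.32 and 14.08 in wild-type adipose tissue, with no overlap and a fall of 2.04-fold (−1.03, SE 0.20, adjusted p = 0.014). This was 1 of 8 members tested, against 7.8% of all genes. Without chips 2 and 3 the change was −1.02, the adjusted p 0.30, and 0 of 8 members passed, against 0.104% of all genes. FGF21-Tg replicate 1, on the chip of the wild-type arrays, was the closest to them, and with chip as a block the change was −0.61 (adjusted p = 0.17). Under that block Alad passed instead (0.84, adjusted p = 0.029). The summed level of 5 adipocyte markers was 16.37 to 16.62 in FGF21-Tg adipose tissue, against 16.65 to 16.74 in wild-type adipose tissue. That of 3 epididymis markers was 7.80 to 14.12 in FGF21-Tg adipose tissue, against 6.75 to 8.98 in wild-type adipose tissue, with Defb12 not detected on any of these arrays. The part of other cells in the Alas1 values was not tested.

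Under restriction Urod rose in adipose tissue, at 13.72, 13.41, 13.41 and 13.51, against 12.52, 12.82 and 12.66 in ad libitum adipose tissue (0.84, SE 0.12, adjusted p = 5.6e-05). It was 1 of 8 members, against 47.5% of all genes. All these arrays lie on the exchanged chips, with each diet on a chip of its own, so chip and diet cannot be told apart, and 2 arrays of each group are at positions the markers could not decide. In fasted adipose tissue Alad, at 12.14, 12.10 and 11.75, against 12.62, 12.79 and 12.73 in ad libitum tissue, fell by 0.71 (1.64-fold, SE 0.18, adjusted p = 0.013), again 1 of 8 members, against 27.8% of all genes. Alas2 was at 10.88, 11.43 and 10.82, all above the ad libitum values of 10.55, 9.80 and 10.15, and did not pass (0.88, interval 0.03 to 1.73, adjusted p = 0.14). On those arrays 2 of 4 erythroid markers rose, among them Hbb-b2 by 1.21, and their summed level was 15.85 to 16.06 in fasted tissue, against 15.41 to 15.85 in ad libitum tissue; their part in the Alas2 values was not tested. The summed adipocyte level was 15.87 to 15.92 in restricted and 16.11 to 16.15 in fasted adipose tissue, against 16.76 to 16.86 in ad libitum adipose tissue, with no overlap. Skeletal muscle markers summed to 11.60 to 13.66 in fasted tissue, against 10.07 to 10.74 in ad libitum tissue, with Ckm not detected on any of these arrays. Their part in the Urod and Alad values was not tested.

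**Figure D4:**
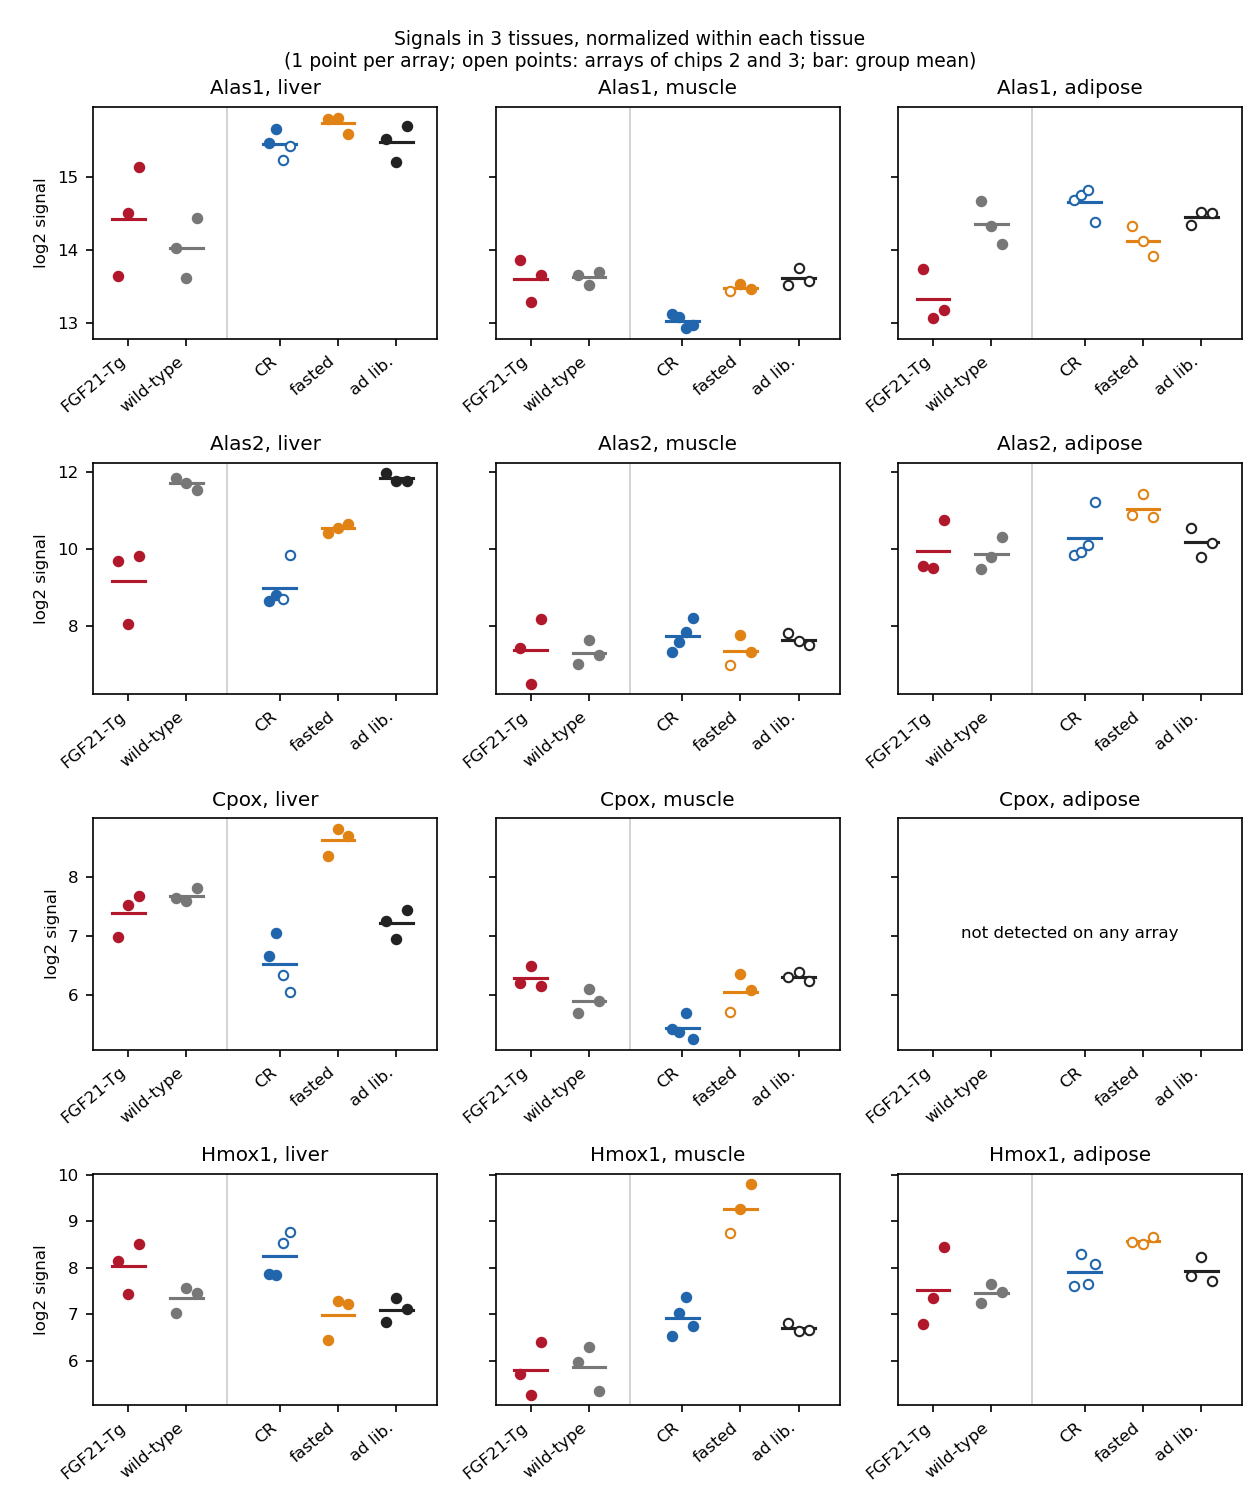
Log2 signal (y axis), normalized within each tissue, of Alas1, Alas2, Cpox and Hmox1 (rows) in liver, muscle and adipose tissue (columns), with 1 point per array, bars at group means and open points for arrays of chips 2 and 3. Alas2 was lower in FGF21-Tg, restricted and fasted mice in liver, and Hmox1 was highest in fasted muscle, at 8.74 to 9.81.

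Levels were compared between tissues after quantile normalization over all 48 arrays, for each probe on its own. Alas2 averaged 11.91 ± 0.11 in ad libitum liver and 11.78 ± 0.14 in wild-type liver (SD, n = 3 each), which overlapped each other and lay above all other groups. Fasted liver followed at 10.74 ± 0.10 and fasted adipose tissue at 10.73 ± 0.38 (SD, n = 3 each), which overlapped. The other adipose groups lay between 9.46 and 9.90, and overlapped the FGF21-Tg and restricted livers at 9.46 ± 0.94 and 9.29 ± 0.53. All muscle groups were at the bottom, at 7.60 to 8.02, with no overlap with restricted liver. The lowest FGF21-Tg liver, at 8.37, lay within the range of restricted muscle, up to 8.47, and of FGF21-Tg muscle, up to 8.44.

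In wild-type mice liver exceeded muscle 18.1-fold in Alas2 (4.18, SE 0.39) and adipose tissue 5.02-fold (2.33, SE 0.39), given with no test because Alas2 was selected on these livers. Alas1 was highest in fasted, ad libitum and restricted liver, at 15.63 ± 0.14, 15.33 ± 0.27 and 15.30 ± 0.19 (SD, n = 3, 3 and 4), with overlap between neighbors, and lowest in restricted muscle at 13.13 ± 0.09 (SD, n = 4). Wild-type liver, at 13.92 ± 0.38, overlapped fasted adipose tissue and wild-type muscle. Wild-type liver minus muscle was 0.22 for Alas1 (adjusted p = 0.42), and liver minus adipose tissue −0.55 (adjusted p = 0.038), which turned to 0.28 when arrays were scaled by their medians. In ad libitum mice Alas1 averaged 15.33 in liver, 14.58 in adipose tissue and 13.69 in muscle, the latter tissues on the exchanged chips. The order of liver and adipose tissue thus differed between the control groups, and tissues were not tested against each other in ad libitum mice.

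Of the later enzymes, Alad was 5.03-fold higher in wild-type liver than in muscle (2.33, SE 0.15) and Fech 2.56-fold higher than in adipose tissue (1.36, SE 0.21). Wild-type liver was at least 5.13-fold higher in Cpox than adipose tissue, and wild-type muscle at least 1.40-fold, on the rule for undetected probes given above. Uros was lower in wild-type liver than in muscle by 0.44 (adjusted p = 0.065), and did not pass without chips 2 and 3 (−0.45, adjusted p = 0.105). Hmox1 was highest in fasted muscle, at 9.49 ± 0.51, followed by restricted liver at 8.58 ± 0.46, whose ranges overlapped, and lowest in wild-type and FGF21-Tg muscle at 6.09 and 5.99. For wild-type liver against muscle 6 of 9 members passed, where 68.1% of all genes did. Against adipose tissue 8 of 9 passed for liver, where 63.6% did, and 9 of 9 for muscle, where 63.5% did. With these shares over all genes, the member counts were not read further. Wild-type muscle minus adipose tissue had a median of −0.11 over all genes, so small differences between these tissues are relative to that shift.

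The effect of each condition in liver was compared with that in the other tissues by interaction terms over all arrays. In FGF21-Tg mice 1 of 9 members, the selected Alas2, differed between liver and muscle, against 1.78% of all genes, and 4 of 9 between liver and adipose tissue, against 10.4%. Of these, Alad did not pass without chips 2 and 3 (−0.63, adjusted p = 0.13), nor Uros with median scaling (−0.87, adjusted p = 0.16). For Alas2, which the liver values chose, the liver effect minus the muscle effect was −2.39 (SE 0.56) and minus the adipose effect −2.40 (SE 0.56). For Alas1 the liver effect exceeded the adipose effect by 1.55 (SE 0.32, adjusted p = 0.0023, and 1.59, adjusted p = 0.014, without chips 2 and 3). With chip as a block the adipose change in Alas1 did not pass (−0.61, adjusted p = 0.17). The interaction was not fitted with that block, so the part of chip in this difference was not tested.

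Under restriction 1 of 9 members differed between liver and muscle, against 29.6% of all genes, and 6 of 9 between liver and adipose tissue, against 29.4%, of which Cpox rests on an undetected adipose probe. Restricted and ad libitum adipose arrays lie on different chips, so chip and diet cannot be told apart in any of these 6. With median scaling Alad (adjusted p = 0.14) and Uros (adjusted p = 0.23) did not pass. In the deposited log2 values Hmox1 (adjusted p = 0.12) and Uros (adjusted p = 0.11) did not. Alas2 again carried the largest differences, at −2.70 and −2.73 (SE 0.52 each, with no test). After fasting 3 of 9 differed between liver and muscle, against 21.8% of all genes. Between liver and adipose tissue 2 of 9 passed, against 16.9%, the selected Alas2 and Cpox, whose probe was not detected in adipose tissue. The liver effect on Cpox exceeded that in muscle by 1.64 (adjusted p = 6.6e-05), and the liver effect on Hmox1 minus that in muscle was −2.58 (adjusted p = 2.1e-04). The liver effect on Alas2 minus that in adipose tissue was −2.11, with no test for the reason given above, and with the adipose arrays all on the exchanged chips.

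Of other genes of heme synthesis, transport and breakdown, 21 of 23 on the array were tested in liver. This list and the other gene lists were chosen with earlier results of these data known, so nothing is read from their counts. In FGF21-Tg liver 1 rose and 0 fell, the heme transporter family member Flvcr2 by 1.19 (SE 0.24, adjusted p = 0.013). Under restriction 7 rose and 3 fell, with Flvcr2 at 1.27, the mitochondrial transporter Abcb10 at −1.22 and the constitutive heme oxygenase Hmox2 at 1.11. After fasting 5 rose and 3 fell, with Flvcr2 at 2.43. The medians of this list were 0.03, 0.01 and 0.18, against 0.00, 0.01 and 0.00 over all genes tested. Of all genes tested, 5.64% passed in FGF21-Tg, 35.5% in restricted and 18.1% in fasted livers. Flvcr2 thus rose in all 3 liver comparisons, of which restriction and fasting share the ad libitum arrays.

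Known regulators of Alas1 were tested for 11 genes in liver. Ppargc1a rose by 1.31 (SE 0.28) in FGF21-Tg mice, 3.25 (SE 0.26) under restriction and 1.89 (SE 0.28) after fasting, in the same livers in which Alas1 did not pass. In all, 3 regulators rose and 0 fell in FGF21-Tg mice, 6 rose and 1 fell under restriction, and 5 rose and 1 fell after fasting. Over all genes 5.64%, 35.5% and 18.1% passed in these comparisons. The clock repressor Nr1d1 was the one that fell, by 1.07 under restriction and 0.98 after fasting. In FGF21-Tg adipose tissue Ppargc1a rose by 1.25 (SE 0.20, adjusted p = 0.0055). The fall of Alas1 there did not pass without chips 2 and 3, under SAM or with chip as a block. Only FGF21-Tg replicate 1 shares a chip with the wild-type adipose arrays, and Ppargc1a was not examined with that block.

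Heme enzymes of liver, mainly cytochrome P450 genes, went both ways, with 7 up and 4 down of 24 in FGF21-Tg mice, 8 up and 7 down under restriction and 8 up and 3 down after fasting, against 5.64%, 35.5% and 18.1% of all genes. These genes were listed with earlier results of these livers known, so nothing is read from the counts. The largest were Cyp2b9 at 7.56 and Cyp4a12a at −7.30 in FGF21-Tg mice and the fatty acid hydroxylase Cyp4a14 at 6.62 under restriction and 6.92 after fasting. Cyp2b9 was detected on 1 of 3 wild-type livers and Cyp4a12a on 1 of 3 FGF21-Tg livers, so both sizes depend on the detection limit. Among 17 genes of iron handling in liver, the transferrin receptor Tfrc rose by 1.41 under restriction and 0.68 after fasting, and the hepcidin gene Hamp2 rose by 1.93 in FGF21-Tg mice but fell by 1.54 and 2.06 under restriction and fasting. Hamp2 has a close paralog, and the probe may not separate them.

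Hmox1 is a target of NRF2 and of the repressor Bach1. In fasted muscle, where Hmox1 rose, Bach1 rose by 1.99 (SE 0.25), and of 13 other NRF2 targets 4 rose and 3 fell, against 41.1% of all genes. The largest changes among them were rises of Srxn1 (1.98), Gclm (1.77) and Osgin1 (1.59). Their median change was −0.01, against −0.04 over all genes. Of 7 macrophage markers tested there 1 rose and 3 fell, and their summed level was 10.81 to 11.11 in fasted muscle, against 10.81 to 11.41 in ad libitum muscle. In muscle the transferrin receptor Tfrc fell by 3.10 after fasting and 2.63 under restriction.

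The genes most like Alas1, Alas2 and Hmox1 in level across the 14 liver arrays of chips 1, 4 and 5 were found by Pearson correlation, as a description over arrays that share chips and groups. For Alas1 these were Mtss1 (r = 0.947), Dnaja2 (0.945) and the clock repressor Ciart (0.943). For Alas2 these were C8b, a complement component (0.973), Spsb4 (0.939) and Ces3b (0.930), and among the members Uros was closest at 0.775, with Alas1 at −0.10. For Hmox1 these were Nt5c3b (0.843), Dock1 (0.837) and Asgr1 (0.822), and its correlation with Alas2 was −0.48.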

How the data were processed

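Total RNA of 3 tissues was hybridized by the authors to Illumina mouseRefseq-8v2 BeadChips, 48 arrays on 6 chips. The authors deposited unnormalized signal intensities from BeadStudio (version not given in the sources used here), 1 for each probe and array. BeadStudio's detection p-values, also deposited by the authors, accompany them. The authors also deposited log2 values, made with model-based background correction and quantile normalization, which were used as an alternative. Gene symbols came from the platform annotation: 23978 probes carry 1 symbol and 1719 none.

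The members and gene lists were chosen with earlier results of these data known. The labels of chips 2 and 3 were exchanged position by position, as described in the report. In R 4.3.3 with limma 3.58.1, intensities were background corrected by normexp with an offset of 16 (function nec, which reads the detection p-values), then quantile normalized tissue by tissue and log2 transformed. Probes needed a detection p under 0.05 on 3 or more of a tissue's arrays, and the brightest such probe stands for its gene. Each tissue had 1 fit over its 5 groups (lmFit, eBayes), and p-values were Benjamini-Hochberg adjusted over all genes tested, with under 0.10 as the threshold. Tissue differences and interactions came from 1 fit over 48 arrays normalized together. All 9 members are named, with at most 3 called genes from each list and 3 of the 5 genes most like Alas1, Alas2 and Hmox1. Each array holds RNA of 1 to 3 mice, and p-values measure the spread between arrays. Labels give replicate numbers, but in 0 of 9 comparisons did every same-numbered pair of samples deviate together (r −0.05 to 0.20), so the numbers were not treated as pairs.

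Alternatives were leaving out chips 2 and 3 or using them as labelled, other background corrections, scalings and detection filters, the deposited log2 values, SAM (the study's test), a 2-fold minimum, chip or replicate number as a block, and leaving out each array. The alternatives for fasted against restricted mice and for tissue differences were added after seeing the data. The limma fit was tested on simulated data with 200 genes changed. Promoter sequences are from RefSeq, GRCm38.p6.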

Additional observations from a re-analysis of the deposited data

Results flagged for a closer look

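Among 26 groups of 4 arrays, 3 held an array that lay far from the other 3, with chance giving about 1 in 20. Alas2 in restricted liver replicate 4 was at 9.83, with the others at 8.66 to 8.80. Ppox in restricted muscle replicate 3 was at 7.37, with the others at 7.99 to 8.09. Alad in restricted adipose replicate 3 was at 12.56, with the others at 12.81 to 12.86. The liver array and the adipose array are on the exchanged chips.

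The effects of a condition differed between tissues for 17 member and tissue pairs, as log2 differences from limma interaction terms fitted without chip as a block. Alas2 was selected on liver values that enter its differences, so these are given with no test, and Cpox was not detected on any adipose array, so its differences from adipose tissue have no tissue effect to compare and are values only. For FGF21-Tg against wild-type mice the liver effect minus the muscle effect was −2.39 for Alas2. Minus the adipose effect it was −2.40 for Alas2, 1.55 for Alas1 (adjusted p = 0.0023), −0.61 for Alad (adjusted p = 0.079) and −0.96 for Uros (adjusted p = 0.043). For restriction against ad libitum feeding the liver effect minus the muscle effect was −2.70 for Alas2. Minus the adipose effect it was −2.73 for Alas2, −0.77 for Cpox, 1.11 for Hmox1 (adjusted p = 0.076), −0.49 for Alad (adjusted p = 0.070), −0.73 for Uros (adjusted p = 0.050) and −0.79 for Urod (adjusted p = 1.9e-04). In the adipose effect of restriction chip and diet cannot be told apart, since the restricted and ad libitum adipose arrays lie on different chips. For fasting against ad libitum feeding the liver effect minus the muscle effect was 1.64 for Cpox (adjusted p = 6.6e-05), −2.58 for Hmox1 (adjusted p = 2.1e-04) and 0.81 for Uros (adjusted p = 0.055). Minus the adipose effect it was −2.11 for Alas2 and 1.41 for Cpox. With chips 2 and 3 as labelled, none of the tested pairs kept its direction with an adjusted p under 0.10 other than Alad under restriction, liver minus adipose tissue (−0.92, adjusted p = 0.051).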

How the results depend on the processing

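Of 1202 values of 96 member results under the alternatives, 1138 kept their direction and their side of the threshold, 32 lost the call, 24 gained one and 8 reversed. Leaving out 1 array at a time gave 620 values, of which 613 kept direction and side, 1 lost the call and 6 gained one. Of 450 tissue differences 397 kept direction and side, 36 lost the call, 10 gained one and 7 reversed. The cause of these changes was not tested, beyond what a setting does by construction.

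A 2-fold minimum left 2 members in restricted liver (5 without it), 0 in restricted muscle (3), 1 in fasted muscle (2) and between fasted and restricted muscle (5), and 0 in restricted and in fasted adipose tissue (1 each). With chips 2 and 3 as labelled, 7 members passed in restricted muscle, 5 in fasted muscle, 2 between fasted and restricted liver (4) and 0 in each adipose comparison. Without these chips 3 passed in restricted liver and 0 in FGF21-Tg adipose tissue. Chip as a block gave 3 in restricted liver and 2 in fasted adipose tissue, and could not be fitted for restricted adipose tissue. The deposited log2 values gave 3 in fasted and 2 in FGF21-Tg adipose tissue, and no background correction gave 2 in FGF21-Tg adipose tissue. SAM gave 4 in fasted and 0 in FGF21-Tg adipose tissue, and 3 between fasted and restricted muscle. Leaving out 1 FGF21-Tg or wild-type array gave 1 to 2 members in FGF21-Tg liver. The replicate block gave 2 in fasted adipose tissue, where Alas2 passed (0.88, adjusted p = 0.080), and changed no other call among 96 member results.

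Reversals came with chips 2 and 3 as labelled. Urod under restriction in adipose tissue became −0.33. Under restriction in muscle Alas2 became −2.50, Cpox 0.28, Ppox −0.56, Urod 0.52 and Uros 0.95, and in fasted muscle Cpox became 0.92 and Uros 0.16. Liver minus adipose effects under restriction became −0.62 for Hmox1, 0.63 for Urod and 0.16 for Uros, and after fasting 0.73 for Alas2. Liver minus muscle effects became −1.54 for Cpox under restriction and −0.10 for Uros after fasting. Median scaling alone turned Alas1 in wild-type liver against adipose tissue to 0.28. Sizes depend on the processing: in the deposited log2 values the rise of Cpox in fasted liver was 0.20, of Hmox1 in restricted liver 0.14, and the fall of Alas2 in FGF21-Tg liver −1.73.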

Other observations

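The control livers of the 2 experiments differed in Alas1. Wild-type livers, the controls of FGF21-Tg mice, were at 14.02, 13.62 and 14.44, against 15.51, 15.20 and 15.69 in ad libitum livers, with no overlap. These arrays are on different chips, so experiment and chip cannot be told apart, and no test was made. Alas2 in the same livers was at 11.84, 11.71 and 11.53 in wild-type mice, against 11.96, 11.75 and 11.76 in ad libitum mice.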
